A study of Mus musculus with 6 samples.

Results

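The inflammasome and NOD-like receptor genes Nod1, Nod2, Nlrp3, Nlrp12, Nlrc4, Naip5, Pycard, Casp1, Casp4 and Gsdmd, 10 of the 27179 genes in the deposited table, were compared between leukemia-initiating cells (LICs) labelled Asic3-null and WT. They were taken by symbol with no measured value in the rule, though earlier results of these data were known when the list was made. The first 6 are sensors, and Pycard, Casp1, Casp4 and Gsdmd are the 4 adaptor and effector genes. All 10 were listed, and 8 reached the mean of 1 RPKM needed for testing. Nod2 and Nlrp12, the remaining pair, were too low.

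NOD-like receptors are cytosolic proteins that sense bacterial products and cell damage. Nod1 and Nod2 recognise fragments of bacterial cell wall and signal through the kinase Ripk2 to NF-kappaB, whereas Nlrp3 and the Naip and Nlrc4 proteins assemble inflammasomes. In an inflammasome the adaptor ASC, encoded by Pycard, gathers caspase-1, which matures interleukin-1 beta and interleukin-18 and cuts gasdermin D, encoded by Gsdmd, into a pore. Caspase-4 (the gene is also called caspase-11 in mice) senses cytosolic lipopolysaccharide and cuts gasdermin D directly. Cells of the myeloid lineage are the best known users of this machinery.

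Both groups carried the same oncogene. Lineage-negative fetal liver cells from Asic3+/+ or Asic3-/- donors were infected with a retrovirus encoding MLL-AF9 and YFP, and were then transplanted into lethally irradiated C57BL/6 mice. Bone marrow cells were sorted as YFP+Mac-1+c-Kit+ LICs, so that the Asic3 genotype belongs to the leukemia and not to the host. The labels give the strain as C57BL/6 and the age as 8 weeks for all 6 libraries, 3 per group. They do not say whether the libraries of a group came from separate mice or how many mice each represents, so p-values measure only the spread between these libraries. The comparison asks how the RNA of the pathway differed between LICs labelled Asic3-null and LICs labelled WT.

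The values are RPKM, reads scaled by gene length and by sequencing depth, and the reads behind them were recovered from their steps. The library size was between 1947168 and 2381861 reads, and 1 read in a 2 kb gene was worth between 0.21 and 0.257 RPKM. Asic3 itself, the deleted gene, went against the labels, with 4.11 to 9.12 RPKM in the Asic3-null-labelled libraries against 0.435 to 1.85 RPKM in WT. The sex of the cells also separated the groups, since Xist was at 46.5 RPKM or more in every Asic3-null-labelled library and at 0.0573 RPKM or less in every WT library. Directions below are therefore those of the labels, and genotype and sex cannot be told apart. Of the genes that define the sorted cells, Itgam, which encodes part of Mac-1, had 12.3 to 16.9 RPKM against 55.1 to 89.5 RPKM in WT (log2 fold change -2.35, adjusted p = 0.00072 by limma), and Kit had 14.4 to 20.4 against 8.97 to 15.3 RPKM (0.64, adjusted p = 0.219 by limma). Meis1 rose (0.91, adjusted p = 0.0367 by limma). Hoxa9 was lower without overlap, at 42.3 to 67.1 against 73.5 to 87.8 RPKM in WT (-0.58, adjusted p = 0.151 by limma). Hoxa9, Mpo (-0.61) and Cd34 (0.22) were not called. Cd3e, Cd4, Cd8a and Ms4a1 were listed at 0 in all 6 libraries. The T cell list summed to at most 0.795 RPKM per library, the erythroid list to at most 10.3 RPKM and the B cell list, through Cd79b, to at least 37.3 RPKM.

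Across all tested genes, 403 of 12037 (3.35%) passed an adjusted p of 0.05 in limma's moderated test on log2(RPKM + 1), of which 340 were lower (2.82%) and 63 higher (0.523%) in the Asic3-null-labelled libraries. The median log2 fold change over all tested genes was 0.03. None of the 8 tested members was called, and 3 of the 8 had an unadjusted p under 0.05. Those 3 were Gsdmd, Pycard and Casp4, all lower in the Asic3-null-labelled libraries. Of all tested genes, 9.45% were lower and 6.43% higher at that unadjusted threshold. No member was called in any of the 16 alternative analyses.

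**Figure D1:**
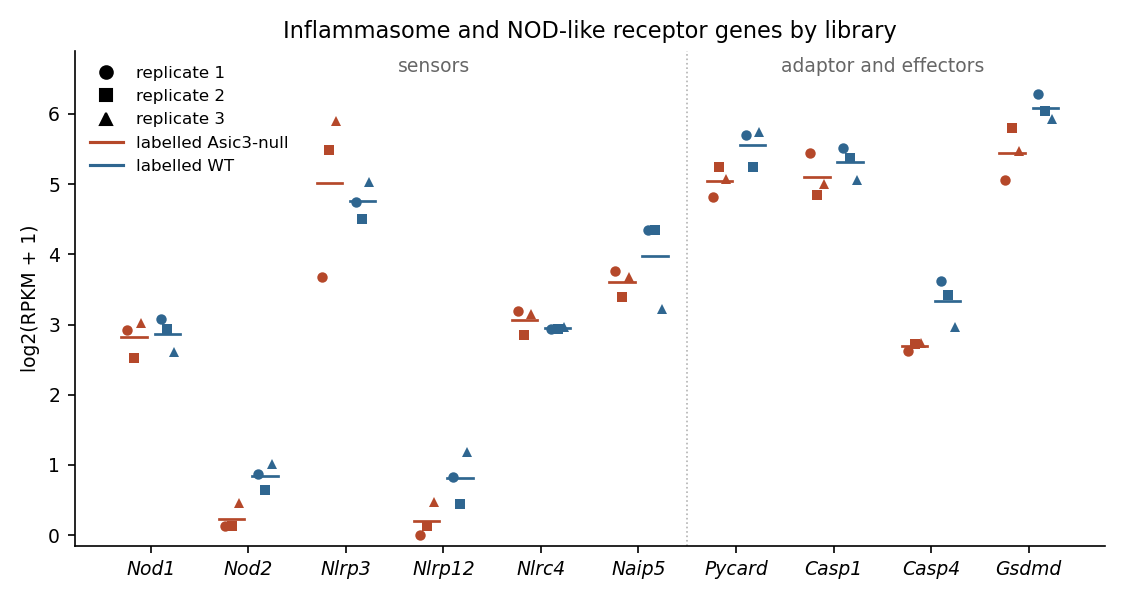
RPKM of the 10 genes on a log2(RPKM + 1) axis, with 1 point per library (circle, square and triangle for replicates 1, 2 and 3) and a bar at the mean of each group of 3; sensors are on the left and the adaptor and effectors on the right. Gsdmd, Pycard, Casp4 and the untested Nod2 do not overlap between the groups, though those of Pycard meet at 36.8 RPKM. Of all tested genes, 22.6% did not overlap, and 11.4% were lower without overlap. Nlrp3 spreads from 11.8 to 58.6 RPKM within the Asic3-null-labelled libraries.

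The levels, per gene length and on the RPKM scale, spanned a wide range. Places relative to Pycard depend on its length, 2135 bases behind the RPKM values against 493 in its GENCODE M21 transcript. In WT LICs Gsdmd was the highest at 67.2 ± 8.53 RPKM (mean ± SD, n = 3), above Pycard in all 3 libraries. Pycard at 46.7 ± 8.64 and Casp1 at 39.2 ± 6.36 RPKM overlapped. Nlrp3 at 26.4 ± 5.03 RPKM came next and overlapped with neither neighbour. Naip5, Casp4, Nlrc4 and Nod1 followed, with means from 15.7 down to 6.38 RPKM, and each overlapped with the next. Nlrp12 and Nod2 lay below 1 RPKM on average and could not be ordered. In the Asic3-null-labelled libraries the top 4 genes, Gsdmd, Nlrp3, Casp1 and Pycard, had means of 43.6 to 32.3 RPKM and each overlapped with the next, so that the order among neighbours was not resolved there. Naip5 at 11.3 ± 1.62 RPKM lay below Pycard and above Nlrc4, at 7.41 ± 1.02 RPKM, without overlap with either, but overlapped with Nlrp3. Nlrc4, Nod1 and Casp4 overlapped in turn, and Casp4, with 5.13 RPKM or more, stood clear above Nod2 and Nlrp12.

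Nod1 (Entrez 107607, chr6:54923942-54972674 in GRCm38), the receptor for a peptidoglycan fragment typical of Gram-negative bacteria, had 6.55, 4.75 and 7.14 RPKM in the Asic3-null-labelled libraries and 7.43, 6.63 and 5.07 RPKM in WT. The groups overlapped throughout. Its log2 fold change was -0.05, with a 95% interval from -0.55 to 0.46 (adjusted p = 0.943 by limma), and its sign turned when Asic3-null replicate 2 (0.10) or WT replicate 1 (0.055) was left out.

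Nod2 (Entrez 257632, chr8:88647315-88688474), the receptor for muramyl dipeptide, had 0.0935, 0.0909 and 0.369 RPKM against 0.823, 0.556 and 1.01 RPKM in WT. These values stand for 1, 1 and 4 reads against 8, 5 and 11 reads, and all 3 Asic3-null-labelled libraries were below all 3 WT libraries (two-sided exact permutation test, p = 0.10, which is the lowest value this design allows). Of the 30 reads, 6 (20.0%, exact binomial 95% interval 7.71 to 38.6%) lay in the Asic3-null-labelled libraries, which held 52.3% of the depth. Reads are not independent molecules, and the interval covers counting error only. With no filter on low values the log2 fold change of Nod2 was -0.60 on the RPKM scale (adjusted p = 0.150 by limma) and -2.07 on recovered reads (adjusted p = 0.0627 by limma-voom).

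Nlrp12 (Entrez 378425, chr7:3218643-3249771), a myeloid receptor known as a brake on NF-kappaB signalling, was as scarce. It had 0, 0.097 and 0.393 RPKM against 0.769, 0.356 and 1.27 RPKM in WT, from 0, 1 and 4 reads against 7, 3 and 13 reads. The groups overlapped, because Asic3-null replicate 3 was above WT replicate 2 (exact permutation test, two-sided p = 0.20). Of 28 reads, 5 (17.9%, exact binomial 95% interval 6.06 to 36.9%) lay in the Asic3-null-labelled libraries. With no filter the log2 fold change of Nlrp12 was -0.61 on the RPKM scale (adjusted p = 0.295 by limma) and -2.41 on recovered reads (adjusted p = 0.0933 by limma-voom). In GENCODE M21 its exons overlap microRNA genes such as Mir292 and Mir291b, mostly on the opposite strand, and the library kit does not mark strand, so reads of both cannot be told apart.

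Nlrp3 (Entrez 216799, chr11:59541569-59566955), the sensor of potassium loss, crystals and membrane damage, is itself known to be induced through NF-kappaB. The 250 bases before its start (RefSeq, GRCm38.p6, chr11:59541319-59541568, + strand) are shown with a match to the kappaB consensus in capitals, which reads on the reverse strand and begins 186 bases before the start.

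Nlrp3 upstream: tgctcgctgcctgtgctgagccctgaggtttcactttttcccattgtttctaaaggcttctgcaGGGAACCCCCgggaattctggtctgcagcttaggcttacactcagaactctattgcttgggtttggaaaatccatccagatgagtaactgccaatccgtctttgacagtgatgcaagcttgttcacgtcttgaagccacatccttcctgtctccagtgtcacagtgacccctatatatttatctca

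Both strands were searched, and 3.90% of 32851 such windows over all RefSeq genes hold the consensus. Nlrp3 had 11.8, 44.0 and 58.6 RPKM in the Asic3-null-labelled libraries, from 110, 421 and 553 reads, and 25.9, 21.7 and 31.7 RPKM in WT, from 219, 170 and 302 reads. The lowest and the highest library were both labelled Asic3-null, and the WT libraries lay between them. The coefficient of variation was 62.8% in the Asic3-null-labelled libraries and 19.0% in WT, and the within-group SD on the log2 scale was at percentile 97.4 of all tested genes. Exact Poisson 95% intervals, which cover counting error only, were 9.71 to 14.2 RPKM in Asic3-null replicate 1 and 39.9 to 48.4 RPKM in replicate 2. Between groups the log2 fold change was 0.26, with a 95% interval from -0.84 to 1.36 (adjusted p = 0.840 by limma). It rested on single libraries, being 0.93 without Asic3-null replicate 1 (adjusted p = 0.0779 by limma) and -0.18 without Asic3-null replicate 3.

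Nlrc4 (Entrez 268973, chr17:74426255-74459144) builds the inflammasome that Naip proteins trigger. It had 8.10, 6.24 and 7.88 RPKM against 6.69, 6.69 and 6.82 RPKM in WT. The WT libraries were almost level and lay inside the range of the others. Its log2 fold change was 0.11, with a 95% interval from -0.30 to 0.53 (adjusted p = 0.809 by limma), and it lay between 0.05 and 0.22 when Asic3-null replicate 1 or Asic3-null replicate 2 was left out.

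Naip5 (Entrez 17951, chr13:100211735-100250930) is the mouse receptor for bacterial flagellin and sits in a cluster of near copies. Naip6, the gene that shares the most 50-base windows with the Naip5 transcript (22.3%), also binds flagellin. The first 120 coding bases of both (GENCODE M21, GRCm38 chromosome 13, - strand, coding starts at 100246199 and 100316551) show why reads can be hard to assign, with the 10 bases that differ in capitals.

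Naip5: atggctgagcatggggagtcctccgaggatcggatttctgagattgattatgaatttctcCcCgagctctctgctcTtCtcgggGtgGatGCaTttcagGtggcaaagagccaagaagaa

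Naip6: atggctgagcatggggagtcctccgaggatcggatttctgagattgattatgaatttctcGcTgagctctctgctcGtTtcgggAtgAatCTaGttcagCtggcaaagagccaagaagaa

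Of the 50-base windows along the Naip5 transcript, 36.9% occur in another gene too, against 0% for Nlrp3, Nlrc4, Nod1, Nod2, Casp1, Casp4 and Gsdmd, so the Naip5 value is uncertain in a way those are not. Naip5 had 12.6, 9.52 and 11.8 RPKM in the Asic3-null-labelled libraries and 19.4, 19.4 and 8.30 RPKM in WT. WT replicate 3 was the lowest of the 6 libraries, while the other two WT libraries were the highest. The log2 fold change was -0.36, with a 95% interval from -1.04 to 0.33 (adjusted p = 0.607 by limma), and it rested on single WT libraries. It was -0.74 without WT replicate 3 (adjusted p = 0.121 by limma) and -0.17 without WT replicate 1 or WT replicate 2. Naip6 had 7.73, 4.26 and 8.83 RPKM against 16.5, 11.4 and 9.20 RPKM, with no overlap between groups (log2 fold change -0.76, adjusted p = 0.238 by limma). The Naip5, Naip6, Naip1 and Naip2 values were also summed, because reads can be divided among near copies. Naip3, which shares 14.5% of the Naip5 windows, was not in the sum. The sum was 30.9, 24.5 and 32.9 RPKM against 50.8, 47.3 and 30.1 RPKM, and the groups overlapped through WT replicate 3.

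Pycard (Entrez 66824, chr7:127991373-127993867) encodes ASC, the adaptor that links most sensors to caspase-1. The 250 bases before its start (RefSeq, GRCm38.p6, chr7:127993868-127994117, - strand) hold a match to GAGGAAGT, the core of the site of the myeloid factor PU.1, in capitals and on the reverse strand, 44 bases before the start; 2.44% of all such windows hold one.

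Pycard upstream: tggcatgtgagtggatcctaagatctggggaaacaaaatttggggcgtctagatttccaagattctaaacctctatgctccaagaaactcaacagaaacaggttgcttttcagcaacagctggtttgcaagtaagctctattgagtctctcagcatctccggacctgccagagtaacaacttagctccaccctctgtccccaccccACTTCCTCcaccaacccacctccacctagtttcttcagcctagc

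Pycard had 27.3, 36.8 and 32.7 RPKM in the Asic3-null-labelled libraries and 51.0, 36.8 and 52.4 RPKM in WT. The groups met at 36.8 RPKM without crossing, Asic3-null replicate 2 being just below WT replicate 2. They averaged 32.3 ± 4.75 against 46.7 ± 8.64 RPKM (SD, n = 3 each; exact permutation test, two-sided p = 0.10). The log2 fold change was -0.51, with a 95% interval from -0.92 to -0.11 (unadjusted p = 0.0194, adjusted p = 0.209 by limma). The unadjusted p stayed under 0.05 in 12 of the 16 alternatives and was above it without Asic3-null replicate 1, WT replicate 1 or WT replicate 3, and with untransformed RPKM. In GENCODE M21 the gene Gm45205 covers 485 exonic bases of Pycard on the opposite strand, and reads from it cannot be told apart in these unstranded libraries.

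Casp1 (Entrez 12362, chr9:5298517-5307281) encodes the protease of the inflammasome. It had 42.5, 27.7 and 31.0 RPKM against 44.9, 40.4 and 32.4 RPKM. Asic3-null replicate 1 was the second highest of all libraries, and the groups overlapped. Its log2 fold change was -0.22, with a 95% interval from -0.66 to 0.22 (adjusted p = 0.620 by limma). With a library left out it lay between -0.40 (without Asic3-null replicate 1) and -0.10 (without Asic3-null replicate 2).

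Casp4 (Entrez 12363, chr9:5308849-5336791) lies just beyond Casp1 on chromosome 9. The 250 bases before its start (RefSeq, GRCm38.p6, chr9:5308599-5308848, + strand) are shown because caspase-4 is known to be induced by the same signals as Nlrp3; they hold the kappaB consensus at 2 overlapping positions, in capitals, which begin 93 and 92 bases before the start.

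Casp4 upstream: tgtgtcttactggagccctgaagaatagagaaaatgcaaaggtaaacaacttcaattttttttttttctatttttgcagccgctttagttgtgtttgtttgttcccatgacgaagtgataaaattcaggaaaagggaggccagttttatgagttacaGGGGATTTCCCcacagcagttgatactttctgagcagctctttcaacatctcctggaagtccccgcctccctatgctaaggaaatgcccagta

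Of the 9 members with a window in RefSeq, Nlrp3, Casp4 and Naip5 held the kappaB consensus and Pycard held the PU.1 motif. Casp4 had 5.13, 5.57 and 5.65 RPKM in the Asic3-null-labelled libraries, from 17, 19 and 19 reads, and 11.3, 9.68 and 6.78 RPKM in WT, from 34, 27 and 23 reads. All Asic3-null-labelled libraries were below all WT libraries, and they were also the tighter group (5.45 ± 0.282 against 9.25 ± 2.28 RPKM, SD, n = 3 each). The log2 fold change was -0.64, with a 95% interval from -1.13 to -0.16 (unadjusted p = 0.0153, adjusted p = 0.184 by limma). The ratio of Casp1 to Casp4 RPKM was 8.30, 4.98 and 5.48 in the Asic3-null-labelled libraries and 3.98, 4.17 and 4.77 in WT. The nearest ratios, 4.98 and 4.77, lay close together, and no test of the ratio was made.

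Gsdmd (Entrez 69146, chr15:75862144-75867408), the pore former, had the highest mean RPKM of the members in both groups and the lowest p-value of the 8 tested. Its place above Pycard depends on the length behind the Pycard RPKM, given above. Gsdmd had 32.3, 54.8 and 43.6 RPKM in the Asic3-null-labelled libraries and 76.6, 65.1 and 59.9 RPKM in WT. Every Asic3-null-labelled library was below every WT library (43.6 ± 11.3 against 67.2 ± 8.53 RPKM, SD, n = 3 each; exact permutation test, two-sided p = 0.10). The log2 fold change was -0.64, with a 95% interval from -1.08 to -0.19 (unadjusted p = 0.0105, adjusted p = 0.149 by limma). Over the alternatives it lay between -0.81 and -0.44, and its lowest adjusted p was 0.077. The 5 symbol-bearing genes whose profile over the 6 libraries was nearest, by the root-mean-square distance of centred log2(RPKM + 1) values, were Pick1 (0.053), Hgsnat (0.071), Rnf225 (0.081), Acyp1 (0.085) and Igsf6 (0.097).

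**Figure D2:**
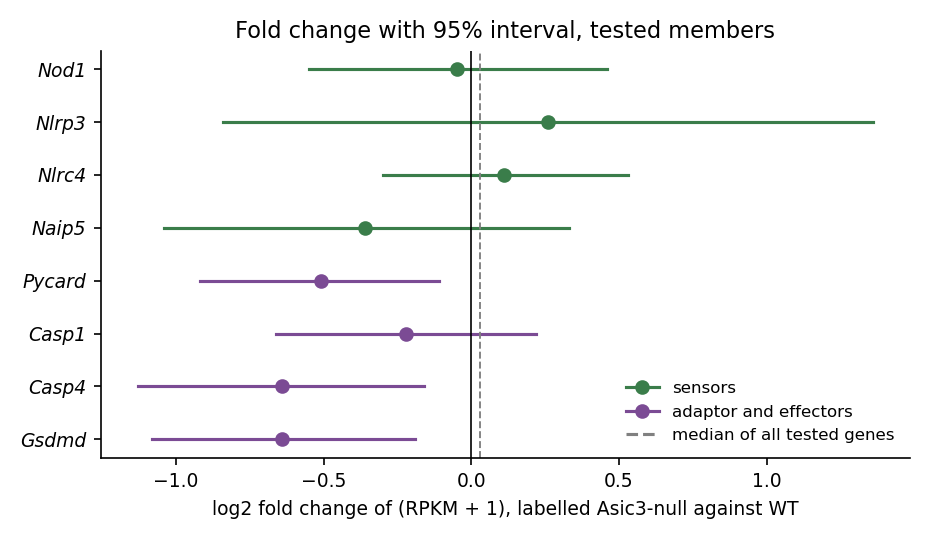
Log2 fold change of (RPKM + 1) in the Asic3-null-labelled libraries against WT for the 8 tested members, with 95% intervals from limma; the dashed line is the median of all 12037 tested genes. The intervals of Pycard, Casp4 and Gsdmd lie below 0, from -0.92 to -0.11, -1.13 to -0.16 and -1.08 to -0.19, and those of the 4 tested sensors and of Casp1 include 0.

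The sensors were then set beside the downstream genes. The 4 tested sensors had 2 negative and 2 positive log2 fold changes with a median of 0.03, the same as all tested genes, and none was free of overlap between groups. With the scarce Nod2 and Nlrp12 counted in, the median log2 difference of the 6 sensors was -0.20. The adaptor and effectors were all 4 negative, with a median of -0.58, and 3 of the 4 did not overlap between groups, where 11.4% of all tested genes were lower without overlap. No test of sensors against downstream genes was made, because the genes were grouped with results of these data known. In the wider list described below, the medians were -0.38 for other NOD-like receptors, -0.30 for the other sensors and -0.16 for the other caspases and gasdermins, so the placing of the members was not repeated there.

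The summed levels gave the same picture for each library. The adaptor and effector genes came to 107, 125 and 113 RPKM in the Asic3-null-labelled libraries and 184, 152 and 152 RPKM in WT, with no overlap. The 6 sensors came to 39.2, 64.7 and 86.2 RPKM against 61.0, 55.4 and 54.2 RPKM, with the lowest and the 2 highest libraries all labelled Asic3-null. Nlrp3 carried that spread, for without it the sensors summed to 27.4, 20.7 and 27.6 RPKM against 35.1, 33.6 and 22.5 RPKM. The ratio of Pycard to Nlrp3 was 2.31, 0.837 and 0.559 in the Asic3-null-labelled libraries and 1.97, 1.70 and 1.65 in WT, so that 2 libraries had less RPKM of the adaptor than of the sensor. That order depends on the 2135 bases behind the Pycard RPKM, against 493 in its GENCODE M21 transcript. In bulk RNA, fewer cells of a type and less RNA per cell cannot be told apart. Markers of mature neutrophils moved with the groups: all 10 tested of 12 were called lower, their median log2 fold change was -3.47, and their summed level was 220 to 358 RPKM against 3834 to 4284 RPKM in WT. Of 8 tested monocyte and macrophage markers all had a negative log2 fold change (median -1.23), 7 were lower without overlap and 4 were called, with sums of 1161 to 1357 against 1623 to 1753 RPKM. The part of either cell type in the members' values was not tested.

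**Figure D3:**
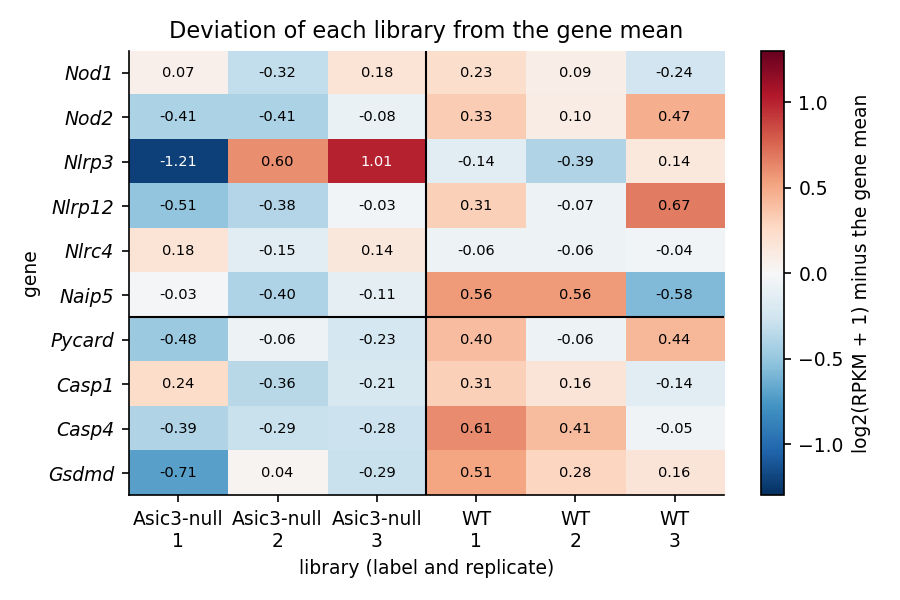
Each library's log2(RPKM + 1) minus the gene's mean over all 6 libraries, for the 6 sensors (above the line) and the 4 adaptor and effectors (below it); red is above the gene's mean and blue below. The adaptor and effector rows are mostly blue on the left and red on the right, and Nlrp3 is the row with the deepest blue and the deepest red, both in Asic3-null-labelled libraries.

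A wider list of 75 genes of the same pathway was read from the same fit, with the 10 members left out. Of these, 19 were listed at 0 in every library and 44 were tested. Slc15a3 and Pstpip1 fell in the Asic3-null-labelled libraries and none rose, which makes 2 calls in 44 where 3.35% of all tested genes were called. At an unadjusted p under 0.05, 8 of the 44 were lower and 2 higher, beside 9.45% and 6.43% of all tested genes. The median log2 fold change was -0.16.

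**Figure D4:**
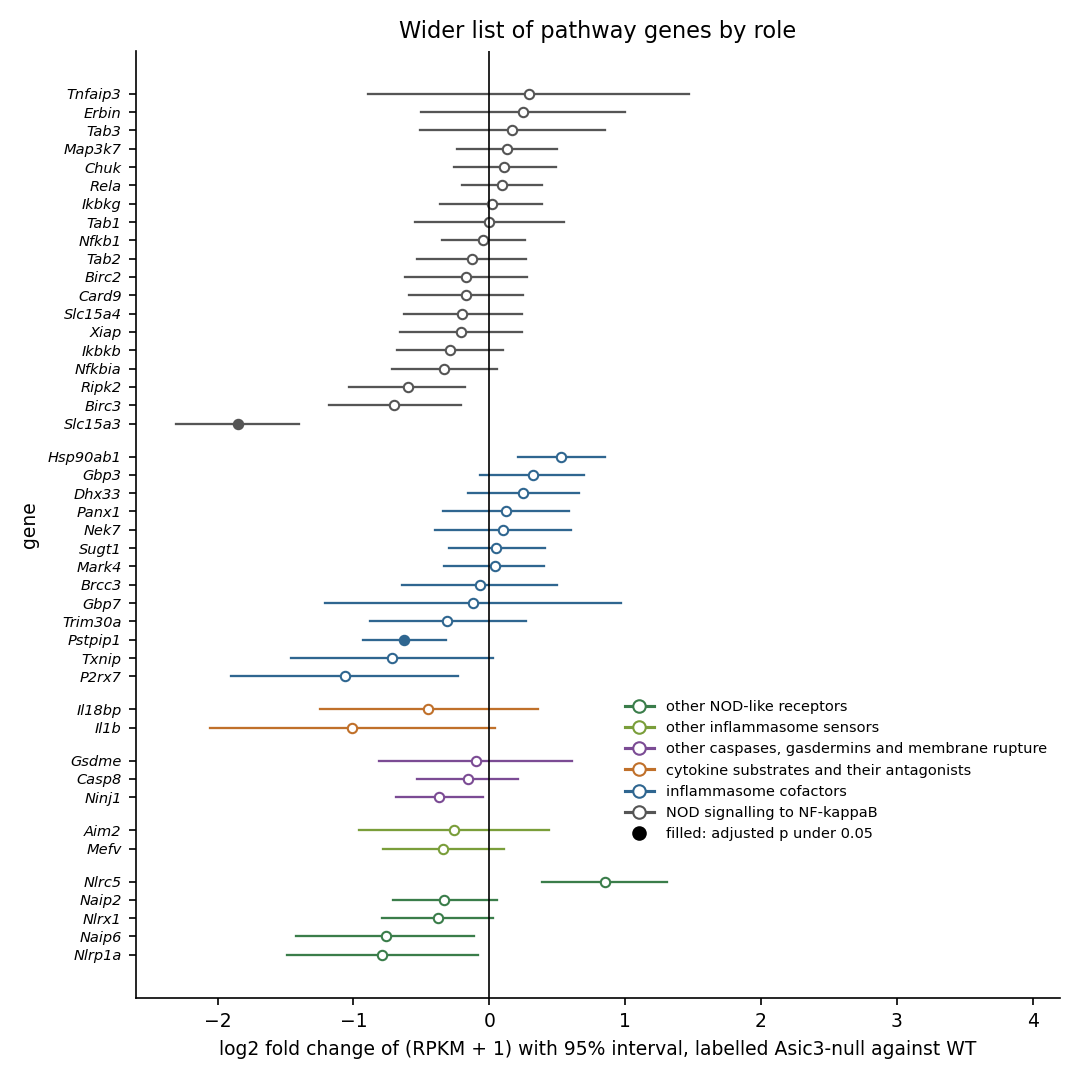
Log2 fold change of (RPKM + 1) in the Asic3-null-labelled libraries against WT with 95% intervals from limma for the 44 tested genes of the wider list, coloured by role; filled points passed an adjusted p of 0.05. Slc15a3 at -1.85 and Pstpip1 at -0.63 are the filled points, and Nlrc5 at 0.85 is the highest.

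Slc15a3 moves muramyl dipeptide and other bacterial peptides out of endolysosomes, where they become available to Nod2. It had 3.13, 3.04 and 3.27 RPKM against 17.4, 13.6 and 11.5 RPKM in WT, a log2 fold change of -1.85 (SE 0.20, adjusted p = 0.00182 by limma). No library came near the other group, and the call was lost in 1 of the 16 alternatives, untransformed RPKM without moderation (adjusted p = 0.174 by limma). Among the other 18 tested genes of NOD signalling to NF-kappaB none was called. Those with the next lowest p-values were Birc3, a ubiquitin ligase of the receptor complex, at 19.3, 12.1 and 18.0 against 33.0, 25.7 and 22.8 RPKM (log2 fold change -0.70, adjusted p = 0.144 by limma), and Ripk2, the kinase that Nod1 and Nod2 share, at 4.86 to 5.45 RPKM against 7.55 RPKM or more (-0.60, adjusted p = 0.153 by limma). Both were free of overlap between groups. The role group's median log2 fold change was -0.13.

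Of 13 tested inflammasome cofactors, 1 fell. Pstpip1, which binds pyrin, had 81.9, 62.8 and 78.7 RPKM against 117, 118 and 109 RPKM (log2 fold change -0.63, adjusted p = 0.0431 by limma). The groups did not overlap, but the call was lost in 11 of the 16 alternatives. These included leaving out any 1 of the 6 libraries (adjusted p from 0.0689 to 0.137 by limma) and the replicate block (adjusted p = 0.114 by limma). Hsp90ab1, a chaperone of NOD-like receptors, was at 1845 ± 170 RPKM against 1286 ± 200 RPKM (SD, n = 3 each) with a log2 fold change of 0.53 (adjusted p = 0.0952 by limma), and limma-voom on recovered reads called it. P2rx7, the ATP-gated channel that triggers Nlrp3, averaged 6.39 ± 3.00 RPKM against 14.1 ± 5.72 RPKM (SD, n = 3 each), without overlap (-1.06, adjusted p = 0.201 by limma). The group's median log2 fold change was 0.04.

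Of the 22 other NOD-like receptors 5 were tested and 11 were listed at 0 in every library, among them Nlrp5, Nlrp9a, Nlrp9b, Nlrp9c and Nlrp14, known from oocytes and embryos. None was called. Nlrc5, the activator of MHC class I genes, had 5.72, 5.98 and 5.21 RPKM against 3.01, 2.51 and 2.55 RPKM, above WT in every library (log2 fold change 0.85, adjusted p = 0.0622 by limma), and passed in 4 of 15 alternatives. Nlrp1a, an inflammasome sensor, had 0.359, 0.612 and 0.886 against 1.68, 2.56 and 1.23 RPKM (-0.79, adjusted p = 0.263 by limma). The Nlrp1a values stand for 4, 7 and 10 reads against 17, 24 and 14 reads. Naip6, given above beside Naip5, lay between Nlrc5 and Nlrp1a by p-value.

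Neither of the sensors outside the family was called. Mefv, which encodes pyrin, had 25.7, 16.5 and 22.5 against 31.7, 23.6 and 26.3 RPKM (log2 fold change -0.34, adjusted p = 0.437 by limma). Aim2, the sensor of cytosolic DNA, had 49.5, 26.6 and 42.6 against 63.1, 53.4 and 28.9 RPKM (-0.26, adjusted p = 0.728 by limma). Both genes overlapped between the groups.

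Of the cytokines that inflammasomes mature, Il1b had 0.325, 3.16 and 1.60 RPKM against 7.16, 2.71 and 2.86 RPKM and overlapped (log2 fold change -1.01, adjusted p = 0.332 by limma). The Il1b values stand for 1, 10 and 5 reads against 20, 7 and 9 reads. Il18 was listed at 0 in all 6 libraries, while Il18bp, which encodes its soluble antagonist, had 0.616, 2.40 and 2.73 against 3.39, 2.20 and 2.71 RPKM (-0.45, adjusted p = 0.578 by limma). Il18bp rested on 2, 8 and 9 reads against 10, 6 and 9 reads. Of the other caspases, gasdermins and the membrane rupture gene, 7 of 11 were listed at 0, among them Casp12 and the Gsdma genes. The 3 tested were not called. Ninj1, which ruptures the membrane of dying cells, had 113, 106 and 82.4 against 124, 128 and 135 RPKM without overlap (-0.37, adjusted p = 0.252 by limma). Casp8, the initiator caspase, had 30.5, 24.8 and 28.2 against 29.5, 37.2 and 27.2 RPKM (-0.16, adjusted p = 0.688 by limma). Gsdme, the gasdermin cut by caspase-3, lay between 0.607 and 1.60 RPKM throughout, from 3 to 8 reads per library (-0.10, adjusted p = 0.908 by limma).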

How the data were processed

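YFP+Mac-1+c-Kit+ LICs were profiled by RNA-seq in 3 libraries per group, with groups and replicate numbers taken from the labels. Per the labels and the study's methods, the authors prepared libraries with a TruSeq kit, used CASAVA 1.8.2 and TopHat2 2.0.12 with GRCm38, and deposited RPKM per Entrez gene. The counting tool, the annotation and the library size are not given in the sources used here. Whole reads were recovered from the RPKM steps. Each of the 16825 genes with any signal came to a whole number of reads (tolerance 0.001), and recovered reads on genes made up 99.6 to 99.7% of the library size. A tested gene had a median of 85 recovered reads, and intervals from reads cover counting error only. Symbols came from RefSeq (25275 genes) and GENCODE M21 (18), and 1886 genes had none.

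The 12037 genes whose RPKM averaged 1 or more were tested. Limma 3.58.1 (R 4.3.3) was run on log2(RPKM + 1), with an intensity trend, the genotype label as the only term and Benjamini-Hochberg adjustment over all of them. A fold change is on that scale and understates the change of low genes. Positions were taken from RefSeq for GRCm38.p6 and windows from GENCODE M21 transcripts. The Pycard, Nlrp12 and Nlrc4 transcripts so used differ in length from the lengths behind the RPKM values. The sequences of 9 of 10 members before the start were found, and Gsdmd was not among them. The steps were checked on simulated data with Python 3.11.15.

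Members and gene lists were chosen with earlier results of these data known. The genes named are mainly the 10 members, Asic3, sorted-cell genes and the 5 profiles nearest to Gsdmd. From the wider list they are mainly those called and the 3 with the lowest p-value in each role. Others were named as markers of sex or cell type, as copies of Naip5, for overlapping exons or as listed at 0. Some were named for a call in an alternative, and some, such as Osm and Tnfaip3, after their values were seen. The alternatives were a pseudocount of 0.1, no filter, a mean of at least 5 RPKM, median-ratio scaling, quantile normalization, no trend, untransformed RPKM without moderation, limma-voom on recovered reads, a replicate block and each library left out in turn. Limma-voom without a filter was added after the data were seen.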

Additional observations from a re-analysis of the deposited data

How the results depend on the processing

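No member was called under any of the 16 alternatives. The number with an unadjusted p under 0.05 was 3 and ranged from 1 (without WT replicate 1, Gsdmd alone) to 5 without a filter, where Nod2 and Nlrp12 entered. In place of Pycard, Nlrp3 (higher) passed without Asic3-null replicate 1 and Naip5 without WT replicate 3. Directions were kept except for Nod1, at 0.10 without Asic3-null replicate 2 and, leaving out WT replicate 1, at 0.055. Nlrp3 also turned, and its log2 fold change lay between -0.18 (without Asic3-null replicate 3) and 0.93 (without Asic3-null replicate 1). The 403 genes called became 4 with untransformed RPKM without moderation, 627 with limma-voom and no filter, and 203 to 293 with a library left out. The 2 genes of the wider list became 1 with no filter, 0 with untransformed RPKM, 4 with limma-voom, 5 with limma-voom and no filter, and 1 to 2 with a library left out; limma-voom added Nlrc5 and Hsp90ab1, its version without a filter also Il1rn, while Nlrc5 took the place of Pstpip1 with quantile normalization and with no trend, and Txnip did so without Asic3-null replicate 1. Fewer libraries entered where one was left out and more genes where no filter was set; elsewhere the cause was not tested.

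With the replicate number as a replicate block, 246 genes, 1 gene of the wider list (Slc15a3) and 0 members were called. No sign was seen that the numbers pair the libraries. Deviations of same-numbered libraries correlated at 0.059, -0.059 and -0.123, and not every library correlated best with its own number. With only 3 libraries per group, these values cannot decide whether the libraries were paired.

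Scaling moved the median of all genes by less than 0.1 on the log2 scale. At this depth Nod2 and Nlrp12 rested on 13 reads or fewer per library, and the other members on 3 libraries per group.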

Other observations

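The profile of Nlrp3 over the 6 libraries was looked at more closely after its values were seen. The tested gene with a symbol that lay nearest to it was Osm, which encodes the cytokine oncostatin M, at a root-mean-square distance of 0.176 between centred log2(RPKM + 1) values. Osm had 16.8, 56.4 and 79.3 RPKM in the Asic3-null-labelled libraries and 34.2, 37.7 and 55.2 RPKM in WT, so that its lowest and its highest library were the same as those of Nlrp3. Bex2 (0.209), Sox13 (0.279), Heg1 (0.298) and Bbc3 (0.304) followed. Tnfaip3, the deubiquitinase that ends NF-kappaB signalling, was named after its values were seen and had 4.23, 14.8 and 25.0 RPKM against 6.62, 14.1 and 9.28 RPKM, again with Asic3-null replicate 1 lowest and Asic3-null replicate 3 highest. None of the 3 genes was called (adjusted p by limma: Nlrp3 0.840, Osm 0.986, Tnfaip3 0.833). These likenesses over 6 libraries are descriptions with no test.

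Il1rn, the antagonist of the interleukin-1 receptor, was below the mean needed for testing and so is not counted among the 44 tested genes. It had 0 reads in each of the Asic3-null-labelled libraries and 2, 2 and 3 reads in WT. With no filter it was not called on the RPKM scale (adjusted p = 0.0612 by limma) and was called by limma-voom on recovered reads (adjusted p = 0.0183), a call that rests on these few reads.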
